A study of Mus musculus with 6 samples.

Results

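The transcription factors Eomes, Mixl1, Gsc, Lhx1, Evx1, Mesp1 and Sp5 mark the primitive streak and the mesendoderm that leaves it, and their RNA was followed in sorted mouse Flk1+ mesoderm. They were read from every probe set that the array's annotation gives to 1 of these genes alone, which is 9 of the 45101 probe sets on the array: 2 each for Eomes and Lhx1 and 1 for each of the others. Of the 8 genes named for this group, 7 have a value; brachyury (T) was not analysed here. The members were taken by gene name, with earlier results of these data known.

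The 6 arrays hold RNA of Flk1+ cells, which carry the VEGF receptor encoded by Kdr, from embryoid bodies grown from embryonic stem (ES) cells for 4 days after 2 days in a pre-differentiation medium. Each of 3 groups has 2 arrays. WT Scl+ and WT Scl- are both fractions of 1 reporter line, derived from the R1 line ((129/Sv x 129/Sv-CP)F1 background), in which human CD4 was knocked into the Scl locus: WT Scl+ cells stained for human CD4 and WT Scl- cells did not. SclKO is a line without functional Scl, derived from the J1 line (129S4/SvJae). Its array titles name the cells Flk+Scl-, while its protocol gives sorting on Flk1 alone. Both WT groups therefore carry the knock-in, and in each comparison with SclKO the knockout, the ES line and the sort gate cannot be told apart. No label tells whether the arrays of a group stem from separate cultures, and every p-value here reflects the spread among these 6 arrays alone, which may be technical.

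Gastrulating cells enter the primitive streak under Nodal, Wnt, BMP and FGF signals and switch on T-box and homeobox factors there. Cells that leave the streak early give rise to mesoderm with heart, blood and endothelial potential, and those that leave at its anterior end form endoderm and axial tissue. In the streak most of these factors are on only briefly. Scl (gene Tal1) is the basic helix-loop-helix factor that blood formation needs.

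The promoters of 6 of the 7 genes were found in RefSeq (GRCm38.p6); Mixl1 is named only. The 250 bases before the start of 3 of them are printed 5′ to 3′, because Mesp1 and Sp5 were the members with a match to the TCF/LEF motif of Wnt signalling and Eomes, whose probe sets had the largest differences between the WT groups, matched none of the 6 motifs searched. Eomes lies at chr9:118477939-118478188 on the plus strand, Mesp1 at chr7:79793591-79793840 on the minus strand and Sp5 at chr2:70474673-70474922 on the plus strand. Capitals mark the motif matches.
Eomes: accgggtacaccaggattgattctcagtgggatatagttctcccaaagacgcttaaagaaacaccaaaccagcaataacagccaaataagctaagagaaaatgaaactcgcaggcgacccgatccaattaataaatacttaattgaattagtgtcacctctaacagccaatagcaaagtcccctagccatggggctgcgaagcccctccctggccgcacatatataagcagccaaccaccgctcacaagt
Mesp1: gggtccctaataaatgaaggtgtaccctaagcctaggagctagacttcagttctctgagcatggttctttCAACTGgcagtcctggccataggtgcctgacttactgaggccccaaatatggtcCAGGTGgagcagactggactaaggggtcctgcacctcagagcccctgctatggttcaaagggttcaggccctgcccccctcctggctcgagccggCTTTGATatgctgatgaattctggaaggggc
Sp5: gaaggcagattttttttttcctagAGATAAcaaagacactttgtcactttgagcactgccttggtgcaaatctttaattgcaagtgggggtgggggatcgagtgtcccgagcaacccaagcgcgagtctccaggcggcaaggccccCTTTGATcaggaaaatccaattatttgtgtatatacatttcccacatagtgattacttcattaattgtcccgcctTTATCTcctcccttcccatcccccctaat
In the Sp5 promoter the capitals mark, in order, a GATA match, a TCF/LEF match beginning 104 bases before the start, and a second GATA match on the other strand. In the Mesp1 promoter they mark 2 E-box matches and a TCF/LEF match beginning 31 bases before the start.

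Motifs were searched as exact letters on both strands of the 300-base window that reaches 50 bases past the start. The TCF/LEF letters CTTTGAT matched 2 of the 6 member windows, Mesp1 and Sp5, against 3.73% of the 32851 windows in the table. The T-box letters GGTGTGA matched 1, Mesp1, beginning at base 6 after the start (3.98% of all windows). The GATA letters AGATAA matched Sp5 (11.2% of all windows), and the E-box letters CAGNTG matched Evx1, Gsc and Mesp1 (51.4%). The FOXH1 letters AATCCACA and the SMAD letters GTCTAGAC matched 0 of the 6 (0.855% and 0.213%). No 2 of the matches overlapped. A match is a description of these letters and not of binding.

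Levels are natural logs of the deposited values, and differences are given in log units. The base of the deposited values is not stated: 1 log unit is 2-fold if the natural log is an RMA log2 value and 2.72-fold in the deposited values as they stand, and folds are given in that order. The median of the natural log lay between 5.196 and 5.25 on the 6 arrays, and probe sets under their array's 40th percentile (4.539 to 4.594) are called dim. All 9 member probe sets passed the filter on low values, and only Gsc had a dim value, on 1 array. Tal1, the targeted gene, was at 8.65 and 8.78 in WT Scl+, 6.52 and 7.97 in WT Scl- and 5.71 and 6.14 in SclKO. The sources used here do not give the part of the transcript that its probe set reads. The sort marker gene Kdr lay between 10.83 and 11.35 on all arrays. WT Scl+ replicate 2 stood apart from the rest, at -78.4 on a first principal component that held 53.2% of the variance (the other arrays lay between -11.5 and 38.1). The members' differences that use it are also given without it. The WT arrays did not group by fraction over the probe sets tested. WT Scl+ replicate 1 correlated at 0.9836 with WT Scl- replicate 2 and at 0.9637 with WT Scl+ replicate 2.

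All 9 member probe sets had their lowest level in WT Scl+, below both arrays of WT Scl- and both of SclKO. In WT Scl+ against WT Scl- the differences ran from -2.16 to -0.99 log units, with a median of -1.53, and in SclKO against WT Scl+ from 1.41 to 2.66, with a median of 2.19. The medians over all 28362 probe sets tested were -0.04 and 0.05 log units. With 2 arrays per group, limma called 0 of the 9 in any comparison after adjustment over all probe sets (lowest adjusted p for a member 0.439 for the WT groups, 0.135 for SclKO against WT Scl+ and 0.886 for SclKO against WT Scl-).

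**Figure D1:**
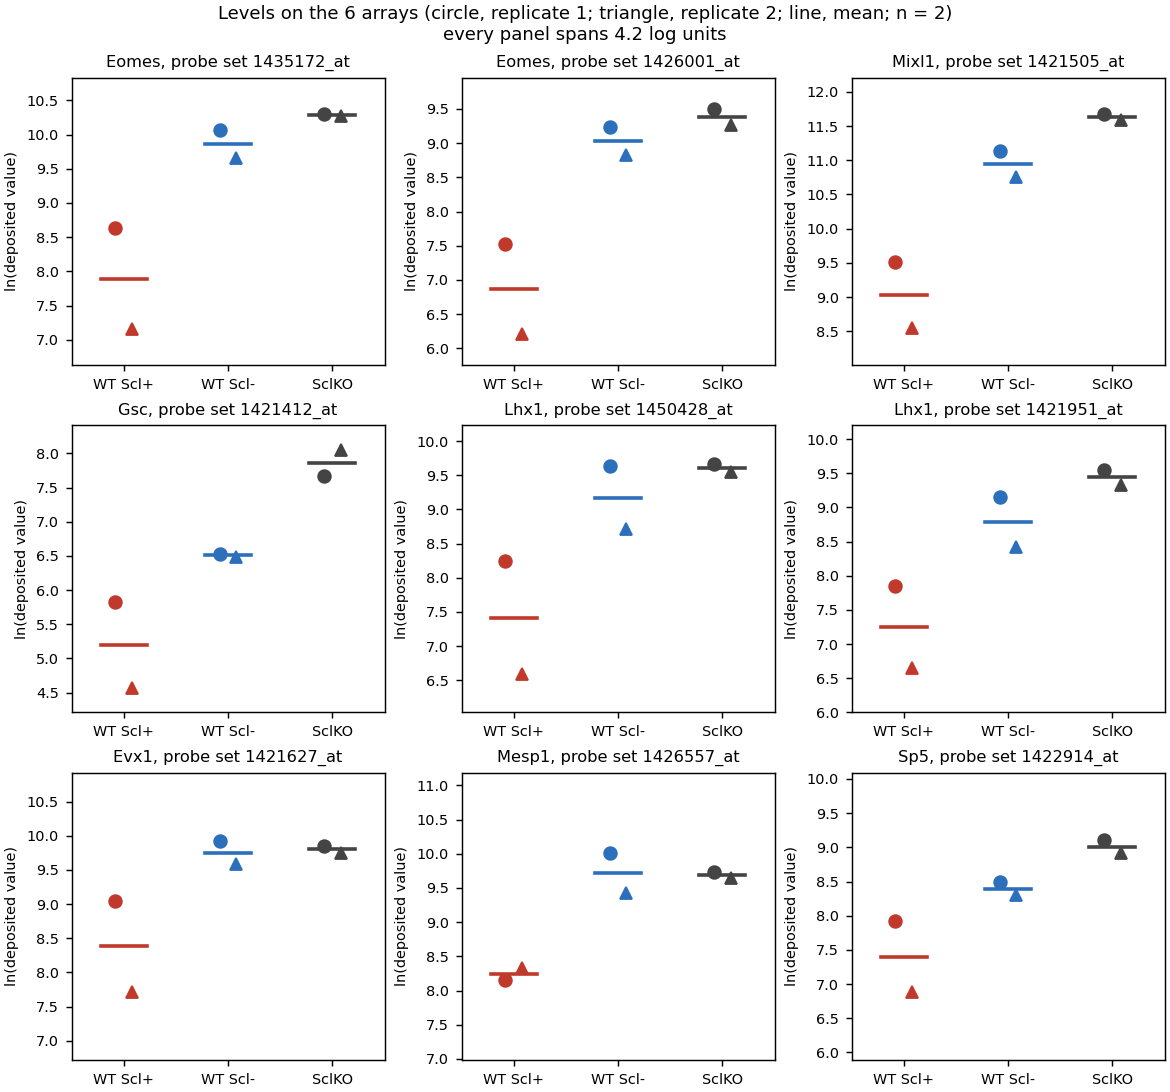
Natural log of the deposited value (vertical axis, every panel spanning the same range) for each member probe set in the 3 groups (horizontal axis); circles are replicate 1, triangles replicate 2 and lines the means of n = 2. Both WT Scl+ arrays lie under every other array in all 9 panels; Mesp1 is the panel in which the WT Scl+ triangle is not below the circle.

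Eomes, a T-box factor that starts mesendoderm and acts upstream of Mesp1, was read by 2 probe sets. On the brighter one, 1435172_at, its level was 8.63 and 7.16 in WT Scl+, 10.07 and 9.66 in WT Scl-, and 10.30 and 10.27 in SclKO. The WT Scl+ arrays were low and did not overlap the others, and the SclKO arrays lay closely together above WT Scl-. WT Scl+ differed from WT Scl- by -1.97 log units (SE 0.46, limma adjusted p = 0.439), which is 3.93-fold or 7.2-fold. SclKO differed from WT Scl+ by 2.39 log units (SE 0.46, limma adjusted p = 0.165). Without WT Scl+ replicate 2 these were -1.24 and 1.66, and without replicate 1 -2.71 and 3.13. The second probe set, 1426001_at, read 7.53 and 6.21, then 9.23 and 8.82, then 9.50 and 9.26 in the same order of groups. It gave -2.16 (SE 0.43) and 2.51 log units (SE 0.43), or -1.50 and 1.85 without WT Scl+ replicate 2, and the first of these was the 10th lowest difference of the 28362 probe sets. The 2 probe sets of Eomes followed each other over the 6 arrays (Pearson r = 0.997, a description of 2 readings of the same RNA).

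Mixl1, a paired-like homeobox factor of the streak that shapes endoderm and mesoderm, was at 9.51 and 8.54 in WT Scl+, 11.13 and 10.76 in WT Scl-, and 11.67 and 11.59 in SclKO. The 3 groups did not overlap and followed each other in that order. The difference was -1.92 log units for WT Scl+ against WT Scl- (SE 0.33, 3.79-fold or 6.85-fold, limma adjusted p = 0.439) and 2.61 for SclKO against WT Scl+ (SE 0.33, 6.1-fold or 13.6-fold, limma adjusted p = 0.135). With an intensity trend and a robust prior the second was called (limma adjusted p = 0.0371). Leaving out WT Scl+ replicate 2 gave -1.44 and 2.12 log units, and leaving out replicate 1 gave -2.41 and 3.10.

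Gsc, a homeobox repressor of the anterior streak and organizer, was at 5.82 and 4.57 in WT Scl+, 6.53 and 6.49 in WT Scl-, and 7.67 and 8.05 in SclKO. Again the 3 groups did not overlap. WT Scl+ replicate 2 was dim, so the differences that use it are as measured: -1.32 log units against WT Scl- (SE 0.40) and 2.66 for SclKO against WT Scl+ (SE 0.40, limma adjusted p = 0.136). Without it they were -0.69 and 2.04, and without replicate 1 they were -1.94 and 3.29. SclKO against WT Scl-, which does not use that array's level, gave 1.35 log units (SE 0.40, 95% interval 0.37 to 2.32, limma adjusted p = 0.886), 2.55-fold or 3.86-fold. Of the 9 probe sets this was the one whose interval for SclKO against WT Scl- did not reach 0, and it ranked 48th from the highest of 28362.

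Lhx1, a LIM-homeobox factor of the anterior mesendoderm, was read by 2 probe sets. On 1450428_at it was at 8.24 and 6.59 in WT Scl+, 9.63 and 8.71 in WT Scl-, and 9.67 and 9.55 in SclKO. WT Scl+ lay below both other groups, which overlapped. The differences were -1.75 log units for WT Scl+ against WT Scl- (SE 0.56) and 2.19 for SclKO against WT Scl+ (SE 0.56), and this probe set had a residual SD above that of 98.5% of the probe sets tested. On 1421951_at the levels were 7.85 and 6.65, 9.15 and 8.42, and 9.55 and 9.33, with differences of -1.53 (SE 0.43) and 2.19 log units (SE 0.43). Without WT Scl+ replicate 2 the first probe set gave -0.92 and 1.36 and the second -0.93 and 1.59; without replicate 1 they gave -2.58 and 3.02, and -2.14 and 2.79. On the second probe set SclKO did not overlap WT Scl-.

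Evx1, an even-skipped homeobox factor of the posterior streak, was at 9.05 and 7.72 in WT Scl+, 9.92 and 9.58 in WT Scl-, and 9.85 and 9.75 in SclKO. Both SclKO arrays lay between the WT Scl- arrays. WT Scl+ differed from WT Scl- by -1.37 log units (SE 0.42, limma adjusted p = 0.465) and SclKO from WT Scl+ by 1.41 (SE 0.42, limma adjusted p = 0.275), while SclKO and WT Scl- differed by 0.05 log units (95% interval -0.98 to 1.07). That interval would still hold a difference of 1 log unit. The differences from WT Scl+ depended on single arrays, at -0.70 and 0.75 without WT Scl+ replicate 2 and -2.03 and 2.08 without replicate 1.

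Mesp1, a basic helix-loop-helix factor of the earliest cardiac mesoderm and a target of Eomes, was at 8.16 and 8.33 in WT Scl+, 10.01 and 9.43 in WT Scl-, and 9.74 and 9.64 in SclKO. It was the member whose WT Scl+ arrays lay closest together, with replicate 2 not the lower one, and its SclKO arrays lay between the WT Scl- arrays. The difference was -1.47 log units for WT Scl+ against WT Scl- (SE 0.23, 2.78-fold or 4.36-fold, limma adjusted p = 0.439) and 1.45 for SclKO against WT Scl+ (SE 0.23, limma adjusted p = 0.136), or -1.56 and 1.53 without WT Scl+ replicate 2. SclKO and WT Scl- differed by -0.03 log units (95% interval -0.58 to 0.52).

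Sp5, a zinc-finger factor switched on directly by Wnt and beta-catenin signalling, was at 7.92 and 6.88 in WT Scl+, 8.49 and 8.30 in WT Scl-, and 9.10 and 8.92 in SclKO. The 3 groups did not overlap, with the smallest gap between the WT groups of any member. WT Scl+ differed from WT Scl- by -0.99 log units (SE 0.34, 1.99-fold or 2.7-fold, limma adjusted p = 0.49), and SclKO from WT Scl+ by 1.60 (SE 0.34, limma adjusted p = 0.183). Here too 1 array moved the values, to -0.47 and 1.08 without WT Scl+ replicate 2 and to -1.51 and 2.12 without replicate 1.

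**Figure D2:**
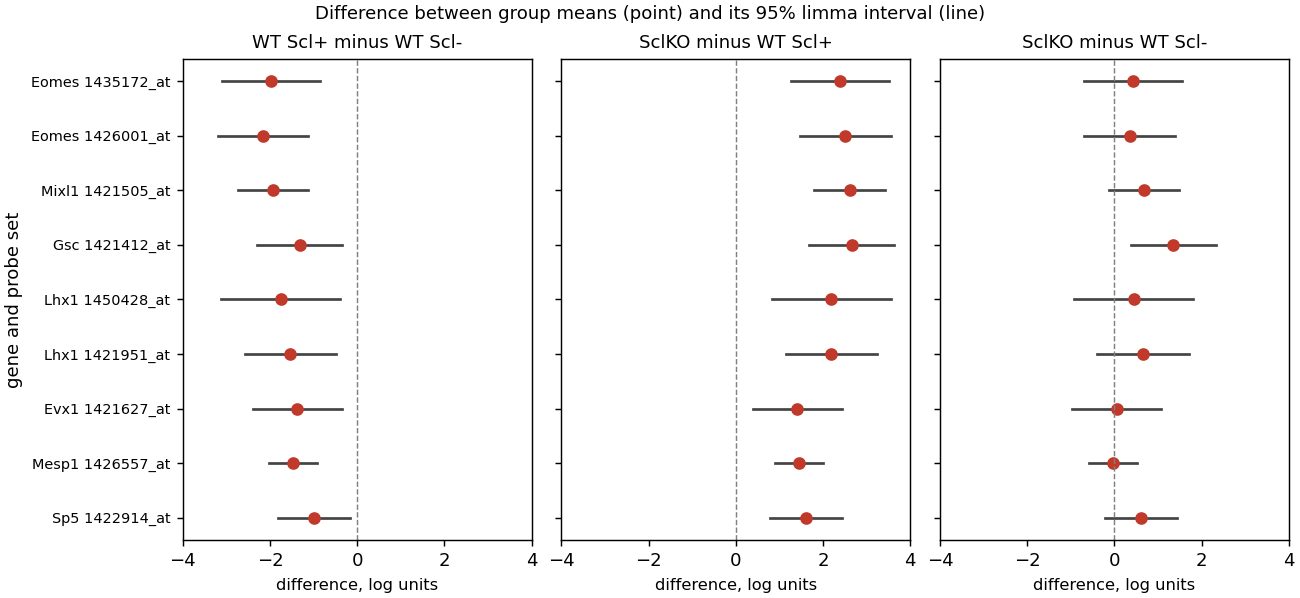
Difference between group means in log units (horizontal axis; points) with the 95% interval from limma (lines) for each member probe set (vertical axis) in the 3 comparisons. The intervals lie wholly under 0 for WT Scl+ minus WT Scl- and wholly over 0 for SclKO minus WT Scl+; for SclKO minus WT Scl- that of Gsc alone does not reach 0.

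Counted over the probe sets, 9 of 9 lay lower on both WT Scl+ arrays than on both WT Scl- arrays, where 21.2% of all probe sets tested were. At an unadjusted p under 0.05, 9 of 9 were lower, against 4.94% of all (7 of 9 without WT Scl+ replicate 2, all but Sp5 and 1 of the Lhx1 probe sets, against 3.7%), and at an adjusted p under 0.05 limma called 0% of all probe sets. In SclKO against WT Scl+, 9 of 9 were higher without overlap (24.4% of all), and 9 of 9 at an unadjusted p under 0.05 (7.35% of all). At an adjusted p under 0.05 limma called 0.0106% of all probe sets in this comparison and none of the members. The 2 comparisons share the WT Scl+ arrays, so their counts are not separate evidence. Nor are the 9 probe sets separate observations, since they read 7 genes and resembled each other (Pearson r 0.76 to 1.00). The members were also chosen with earlier results of these data known, so the shares over all probe sets are a description. In SclKO against WT Scl-, 6 of 9 were higher without overlap (21.7% of all), 0 were lower without overlap (19.5% of all), and 1, Gsc, had an unadjusted p under 0.05 (2.7% of all were higher at that level). The 3 probe sets that limma called in each comparison with SclKO, named after their values were seen, were 1 of Cdkn1c, 1 of Gm6958 and 1 without a gene name, 1456319_at.

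The members differed in how far the WT Scl- mean had moved from WT Scl+ towards SclKO, which is given as a description since all 3 means enter it. For Mesp1 and Evx1 the WT Scl- mean stood at 102% and 96.7% of that distance. For the 2 Eomes probe sets it stood at 82.5% and 85.9%, for those of Lhx1 at 80% and 70%, and for Mixl1 at 73.8%. Sp5 (61.8%) and Gsc (49.4%) stood lowest. Without WT Scl+ replicate 2, Mesp1 and Evx1 stood at 102% and 93.8%, and Sp5 and Gsc at 43.5% and 33.9%. In every member the order of means was WT Scl+, then WT Scl-, then SclKO, except that Mesp1 had WT Scl- and SclKO level with each other. For all members but Gsc these upper 2 groups did not differ beyond their 95% interval, which does not show them to be equal.

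The spread inside WT Scl+ was large for these genes. Replicate 1 lay above replicate 2 in 8 of 9 probe sets, by a median of 1.25 log units over the 9, and by at least 1 log unit in 7 of 9; over all probe sets tested the median was 0.10 and 4.83% reached 1 log unit. In WT Scl- replicate 1 lay above replicate 2 in 9 of 9 (median 0.41; all probe sets, 0.01), and in SclKO in 8 of 9 (median 0.10; all probe sets, 0.03). The exceptions were Mesp1 in WT Scl+ (-0.17) and Gsc in SclKO (-0.38). Leaving out WT Scl+ replicate 2 brought the median difference between the WT groups to -0.93 log units, and leaving out replicate 1 brought it to -2.14. Without replicate 1, which leaves the array that stands apart as the only one of its group, limma called 3 of 9 probe sets as lower than in WT Scl- (both Eomes probe sets and that of Mixl1, adjusted p = 0.0497 each; 0.162% of all probe sets were called) and 8 of 9 as higher in SclKO, all but Mesp1 (adjusted p = 0.0246 to 0.0381; 4.16% of all probe sets were called). For SclKO against WT Scl+ the median was 1.59 without WT Scl+ replicate 2 and 3.02 without replicate 1. Mesp1 depended least on these arrays, at 1.53 and 1.36 log units.

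**Figure D3:**
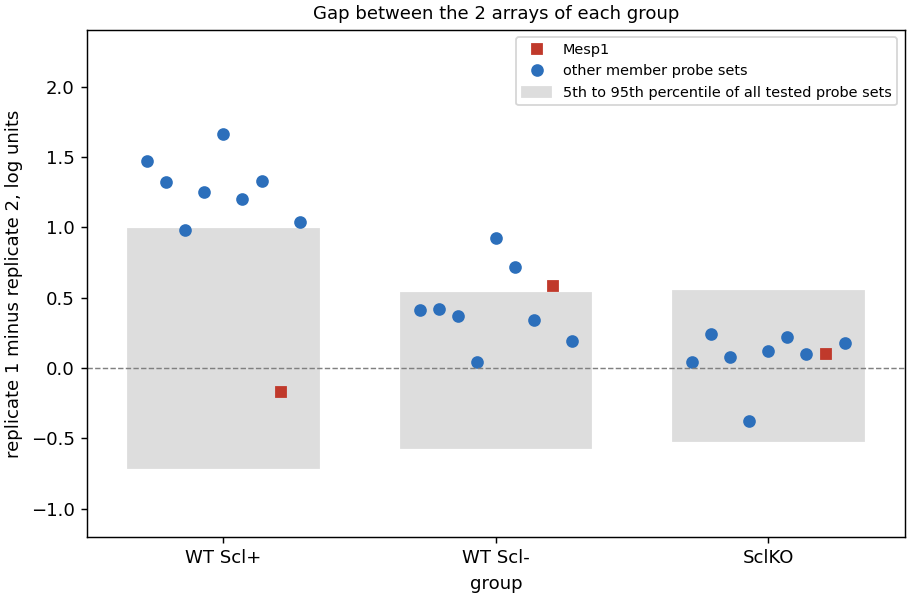
Replicate 1 minus replicate 2 in log units (vertical axis) within each group (horizontal axis) for the 9 member probe sets (points, Mesp1 as a square), over a grey bar from the 5th to the 95th percentile of all probe sets tested. In WT Scl+ the members other than Mesp1 lie near or above the top of the bar (0.99); in SclKO all lie inside it.

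Markers of other cells that Flk1+ sorts or embryoid bodies can hold were read from lists of 5 to 8 genes, with 1 probe set per gene, as the mean natural log per array. Definitive endoderm markers, of which 6 of 6 had a probe set and Foxa1 was dim on every array, were at 6.97 and 6.50 in WT Scl+, 6.21 and 6.39 in WT Scl- and 6.69 and 6.67 in SclKO. This is not the order of the members. The list includes Hhex, which endoderm shares with early blood and endothelium. Hhex was at 9.79 and 9.92 in WT Scl+, 7.19 and 8.87 in WT Scl- and 7.37 and 7.77 in SclKO. Foxa2 and Cer1 of the same list were higher in SclKO than in WT Scl+, by 0.34 and 0.91 log units. Without WT Scl+ replicate 2 these were 0.12 and 0.17. Against WT Scl- both were higher in WT Scl+, by 0.41 and 0.27 log units, or 0.62 and 1.01 without that array, unlike the members. How far Hhex, or Sox17 and Cxcr4 of the same list, set its mean was not tested. Pluripotent cell markers (8 of 8, none dim throughout) were at 6.70 and 5.50 in WT Scl+, 6.28 and 5.73 in WT Scl- and 6.39 and 6.25 in SclKO, so that replicate 1 lay above replicate 2 in each group, as for most members. Endothelial markers (6 of 6, none dim throughout) ran the other way, at 7.53 and 8.32 in WT Scl+, 5.03 and 7.07 in WT Scl-, and 5.41 and 6.29 in SclKO. Blood markers (6 of 7 with a probe set) were at 7.64 and 6.93, 5.34 and 5.99, and 5.14 and 5.28. Of the neural ectoderm markers Sox1, Neurog2 and Zic1 were dim on every array, and the list lay between 3.60 and 3.98. Visceral endoderm markers (7 of 7, Amn dim throughout) were at 5.47 and 5.41 in WT Scl+, above all other arrays. They were at 4.86 and 5.18 in WT Scl- and 4.84 and 4.93 in SclKO. Single genes of this list, Sox7 among them, were not read apart, and their part in its mean was not tested. Cardiac muscle markers (5 of 5, none dim throughout) were at 6.13 and 5.64 in WT Scl+, 6.44 and 6.00 in WT Scl- and 6.42 and 6.16 in SclKO, with replicate 1 above replicate 2 in each group and WT Scl+ replicate 2 the lowest array, as for most members. The labelled cell type was read from lateral Flk1+ mesoderm markers, none of 7 dim throughout, which lay between 7.43 and 8.55 with the lowest value on WT Scl+ replicate 2. The part of these cell types in the members' differences was not tested, and in sorted bulk cells fewer cells with a transcript and less transcript per cell cannot be told apart.

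The signals that act on the streak were read from a list of Nodal, Wnt, BMP and FGF pathway genes, 19 of 21 of which could be tested. None was called in any comparison; without WT Scl+ replicate 1, limma called 1 between the WT groups (0.162% of all probe sets) and 9 in SclKO against WT Scl+ (4.16% of all). In WT Scl+ against WT Scl-, 13 differences were negative and the median was -0.71 log units (-0.38 without WT Scl+ replicate 2). At an unadjusted p under 0.05, 11 genes were lower (4.94% of all probe sets) and 0 higher (4.44% of all). The ligand gene Wnt5a was at 8.57 and 7.17 in WT Scl+ against 10.50 and 10.06 in WT Scl-, a difference of -2.41 log units (SE 0.45). Wnt5b differed by -1.63 (SE 0.41) and Wnt3, the ligand needed to form the streak, by -1.39 (SE 0.28). Without WT Scl+ replicate 2 these 3 were -1.71, -1.02 and -1.04. In SclKO against WT Scl+, 17 of 19 differences were positive and the median was 0.91 (0.68 without WT Scl+ replicate 2). Here 11 genes were higher (7.35% of all probe sets) and 1 lower (5.68% of all) at an unadjusted p under 0.05. Wnt5a was higher by 2.39 log units (SE 0.45), Lefty2, an inhibitor of Nodal, by 2.23 (SE 0.47) and Fst, which binds activin, by 1.84 (SE 0.66). Without WT Scl+ replicate 2 they were 1.69, 1.56 and 0.79.

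For SclKO set against WT Scl-, the 3 largest differences of that list without overlap were those of Fgf5, Cer1 and Lefty2, each with an unadjusted p above 0.05 (0.102, 0.0676 and 0.0678). Fgf5, an epiblast growth factor, differed by 1.96 log units (SE 1.02), with 7.88 and 6.34 in WT Scl- and 9.23 and 8.91 in SclKO. Cer1 and Lefty2, both secreted inhibitors of Nodal, differed by 1.18 (SE 0.53) and 1.03 (SE 0.47). The list's median was 0.22. At an unadjusted p under 0.05, 2 of 19 were higher (2.7% of all probe sets) and 1 lower (2.77% of all). The 2 higher were Nodal, by 0.83, and Tcf7l1, by 0.53 log units, named after their values were seen.

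Of 24 other genes of the streak, node and presomitic mesoderm, 18 could be tested and 0 were called with all 6 arrays. Their median difference was -0.73 log units in WT Scl+ against WT Scl-, with 12 negative. In SclKO against WT Scl+ it was 0.88, with 13 positive. Without WT Scl+ replicate 2 the medians were -0.31 and 0.63, and without replicate 1 they were -0.91 and 1.09. The medians depended on the filter on low values: with no filter (23 genes) they were -0.44 and 0.34, and with the 60th percentile filter (12 genes) -0.79 and 1.38. At an unadjusted p under 0.05, 3 were higher and 5 lower in the first comparison (4.44% and 4.94% of all probe sets). In the second, 9 were higher and 3 lower (7.35% and 5.68% of all). The 3 higher and the 3 lower were the same genes, Hhex, Rspo3 (0.77 and -1.09 log units) and Aplnr (0.42 and -0.65). Rspo3 and Aplnr were named after their values were seen. Hhex, a homeobox factor shared by endoderm and early blood and endothelium, went furthest against the list. It was at 9.79 and 9.92 in WT Scl+, 7.19 and 8.87 in WT Scl-, and 7.37 and 7.77 in SclKO, with differences of 1.83 (SE 0.52) and -2.29 log units (SE 0.52), or 1.76 and -2.22 without WT Scl+ replicate 2.

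In the direction of the members, Snai2 differed by -1.85 (SE 0.95) and Hoxb1 by -1.65 log units (SE 0.78) between the WT groups, both with a dim value on WT Scl+ replicate 2 (3.50 and 2.27), and without that array they were -0.21 and -0.37. Otx2, a factor of the anterior epiblast, differed by 2.43 (SE 0.80) and Hoxb1 by 2.34 (SE 0.78) in SclKO against WT Scl+, or 1.13 and 1.06 without that array. The median of this list for SclKO against WT Scl- was 0.16. The retinoic acid-degrading enzyme gene Cyp26a1 differed by 0.88 (SE 0.32), Otx2 by 0.81 (SE 0.80) and Foxa2, a factor of endoderm and node, by 0.74 log units (SE 0.24).

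Close relatives of the members, other T-box, homeobox, Sp and Mesp family genes, gave 15 of 22 that could be tested. With all 6 arrays 0 were called. Tbx6, Mesp2 and Msgn1 are also in the list of other streak, node and presomitic genes, so these lists are not separate. The medians were -0.44 in WT Scl+ against WT Scl-, 0.54 in SclKO against WT Scl+ and 0.16 in SclKO against WT Scl-. Without WT Scl+ replicate 2 the first 2 were -0.15 and 0.37, and without replicate 1 they were -0.72 and 0.96. With the 60th percentile filter (9 genes) the medians were -0.90, 0.90 and -0.11. The first 2 were thus larger and the third turned sign. With no filter (22 genes) the medians were -0.26, 0.41 and 0.19. Isl1 was the relative with the largest difference between the WT groups, at -1.81 log units (SE 0.35), followed by Sp8 at -1.71 (SE 0.65) and Tbx2 at -1.53 (SE 0.41). Sp8 and Tbx2 were dim on WT Scl+ replicate 2 (3.90 and 4.30), and without that array Isl1, Sp8 and Tbx2 differed by -1.53, -0.70 and -1.26. Between SclKO and WT Scl+, Sp8 differed by 2.31 (SE 0.65), Mesp2 by 1.79 (SE 0.34) and Isl1 by 1.70 log units (SE 0.35), or 1.30, 1.39 and 1.42 without it. Mesp2, the neighbour and closest relative of Mesp1, was at 5.81 and 5.0 in WT Scl+, 7.23 and 6.50 in WT Scl-, and 7.22 and 7.17 in SclKO. Between SclKO and WT Scl- the largest were Sp8 (0.60, SE 0.65), Lhx5 (0.37, SE 0.18) and Evx2 (0.32, SE 0.20), with Lhx5 dim on both WT Scl- arrays.

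**Figure D4:**
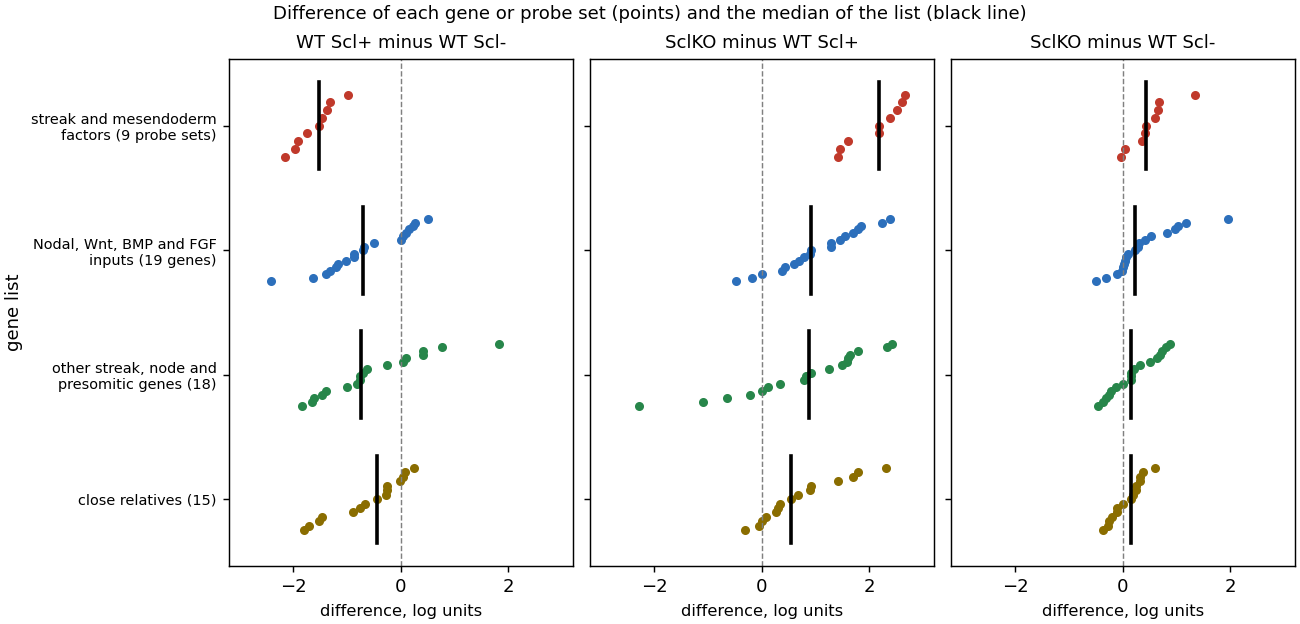
Difference in log units (horizontal axis) for each member probe set and each tested gene of the 3 accompanying lists (points), with the median of each list as a black line, in the 3 comparisons. The member medians are -1.53, 2.19 and 0.44, and the green point at 1.83 in the first panel is Hhex. Tbx6, Mesp2 and Msgn1 are drawn both among the other streak, node and presomitic genes and among the close relatives.

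The members resembled each other over the 6 arrays. Pearson r over the 36 pairs of member probe sets ran from 0.76 to 1.00, from 0.86 in the 28 pairs without Mesp1 and up to 0.91 in the 8 with it. Over the 5 arrays without WT Scl+ replicate 2 it ran from 0.62 to 0.99 with Mesp1 and from 0.66 to 0.99 without it. These are descriptions over arrays that share groups. Against the mean standardised profile of the members, with 1 probe set per gene, Eomes had an r of 1.00 on both probe sets. Mesp1 was the lowest at 0.89 and Gsc was at 0.94. Each of these genes is itself part of that mean, which raises its r. Among other genes with a range of at least 1 log unit, the 6 most like that profile were Robo1 (r = 0.9964), a guidance receptor, Dsp (0.9961), a desmosome component, Plxna2 (0.9952), a semaphorin receptor, Cdh2 (0.9948), the gene of N-cadherin, Cdh4 (0.9946) and Tmeff1 (0.9946). Cdh2 had the widest range of the 6, with 9.69 and 8.62 in WT Scl+, 10.82 and 10.42 in WT Scl-, and 11.06 and 10.79 in SclKO. The members' mean profile was lowest on WT Scl+ replicate 2 (-1.64) and highest on SclKO replicate 1 (0.82). The first principal component of all probe sets tested had the same lowest and highest arrays (-78.4 and 38.1). Whether the 6 genes follow the members or that component was not tested, and the likeness was not read without WT Scl+ replicate 2.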

How the data were processed

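RNA of 6 samples was measured on Affymetrix mouse arrays. Per the submitters' processing notes, the authors used RMA, affy and limma, without versions; RMA is a background correction, a quantile normalisation and a summary over the probes of each set. No unit is stated for the deposited values. They run from 3.256 to 2822995, with 1040 to 1153 probe sets per array above 65535, the ceiling of a 16-bit scanner, and their natural log (1.18 to 14.85) has the range of RMA values, so the natural log was taken. Columns left unused numbered 0.

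Of the 45101 probe sets, 34958 had 1 symbol in the platform annotation, 932 had several and 9211 had none, and 34754 symbols were brought up to date by Entrez number. Control probe sets (64) were left out. Probe sets above the 40th percentile of 2 or more arrays were tested (28362). The group means were estimated together from the 6 arrays by limma 3.58.1, run in R 4.3.3 (residual degrees of freedom 3, prior 3.13), two-sided, with Benjamini-Hochberg adjustment over all probe sets tested; the fit was tested on simulated data. An exact permutation test of 2 arrays against 2 cannot go below p = 0.333 and was not used. Arrays have no read depth, and their number limits the precision.

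For the accompanying lists, each gene's probe set with the highest mean was used. The members, lists, motifs and naming rules were chosen with earlier results of these data known. Named were all members, Tal1 and Kdr, per list and comparison the 3 genes with the largest differences among those called or, where none was, without overlap of the groups, and the 6 genes most like the members' profile. The alternatives tried were a block for replicate number, no filter or a 60th percentile filter, 1 probe set per gene, only the groups compared, a trended robust prior, renewed quantile normalisation, median centring, and leaving out each array.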

Additional observations from a re-analysis of the deposited data

How the results depend on the processing

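Of the 124 values of the member probe sets under the 14 alternatives, 3 were called in WT Scl+ against WT Scl-, 9 in SclKO against WT Scl+ and 0 in SclKO against WT Scl-. Their direction in the first 2 comparisons says nothing about stability, since groups that do not overlap keep it when an array is left out and most other alternatives leave the difference as it is. Between the WT groups limma called 0 of all probe sets (1260 higher and 1400 lower at an unadjusted p under 0.05), and 0 to 46 when arrays were left out in turn. For SclKO against WT Scl+ the count was 3, but 6 with the replicate block, 1 with 1 probe set per gene, 27 with only the groups compared, 32 with the trended robust prior, and 0 to 1179 when arrays were left out in turn. For SclKO against WT Scl- it was 3, but 6 with the 60th percentile filter, 1 with 1 probe set per gene, 11 with the trended robust prior, and 0 to 3 when arrays were left out in turn. The highest counts, 46 and 1179, came without WT Scl+ replicate 1; a lone array is assumed there to vary like the other groups. The fit with 1 probe set per gene leaves out probe sets without a gene name, so 1456319_at could not be called there. For the other changes in count the cause was not tested. The same replicate numbers do not pair the arrays by any label; differences between replicates 1 and 2 correlated across groups at 0.21 to 0.24 over probe sets, and the block called 0 member probe sets. For SclKO against WT Scl-, Evx1 turned to -0.12 without WT Scl- replicate 2 and to -0.001 without SclKO replicate 1, Mesp1 to 0.26 without WT Scl- replicate 1 and to 0.02 without SclKO replicate 2, and Lhx1 (1450428_at) to -0.02 without WT Scl- replicate 2. Over the fits that left out 1 array, Evx1 ran from -0.12 to 0.22, Mesp1 from -0.32 to 0.26 and Lhx1 from -0.02 to 0.90.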
